A study of Mus musculus with 6 samples.

Results

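Striatal projection neuron genes were examined in the neonatal mouse brain after testosterone propionate (TP), an ester of testosterone. The set lists 7 genes, Drd2, Adora2a, Ppp1r1b, Rgs9, Pde10a, Rarb and Foxp1, and was defined by name. Every probe set that the array annotation pairs with 1 of these genes alone was taken, which gave 19 probe sets of 6 genes, out of 34945 single-gene probe sets of 18193 genes. Drd2, Ppp1r1b and Rarb had 1 probe set each, Rgs9 had 3, Pde10a had 5 and Foxp1 had 8. Adora2a is not analysed here. The brightest probe set of each of the 6 genes, by its mean over all arrays, lay above the level under which a probe set is called dim, the 40th percentile of mean log2 values (5.49). Of the 19 probe sets, 14 lay above it and 5 were dim, and all 19 were tested.

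C57BL/6 mice received an intraperitoneal injection on postnatal day 2, and whole-brain RNA was collected on postnatal day 6. TP animals received 1 mg of TP in 20 µL of sesame oil, and vehicle animals received 20 µL of the oil alone. There were 2 female TP arrays, 2 female vehicle arrays, 1 male TP array and 1 male vehicle array, each with pooled RNA of 6 mice. Individual animals were therefore not measured, and the labels do not say whether the second female array of each treatment, called a replica, came from a separate pool, so p-values reflect only array-to-array spread, possibly technical.

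Striatal projection neurons are the GABA-releasing output cells of the striatum and make up most of its neurons. Those of the direct pathway carry dopamine D1 receptors, and those of the indirect pathway carry dopamine D2 and adenosine A2a receptors. Both receptor systems act on cyclic AMP, which phosphodiesterases remove and which sets the activity of protein kinase A. In rodents the dopamine fibres and the signalling proteins of these cells are still maturing in the first weeks after birth. Whole brain holds many other cells, and several of these genes are also expressed outside the striatum, among them Foxp1 in the cerebral cortex and Drd2 in midbrain dopamine neurons and the pituitary gland. In such bulk samples fewer cells of a type and less RNA per cell cannot be told apart.

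The upstream sequences of a pair of the genes are given to show where hormone-receptor motifs would be looked for. Drd2 is shown because its values were lower on all TP arrays, and Rarb because its promoter holds a textbook nuclear-receptor site. Each runs 5′ to 3′ over the 250 bases before a RefSeq transcription start, from mouse build GRCm38.p6. The Drd2 window is chr9:49340153-49340402 on the plus strand, with its 2 GC boxes (GGGCGG, either strand) in capitals. The Rarb window is chr14:16575477-16575726 on the minus strand, with its retinoic acid response element (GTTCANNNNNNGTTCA) in capitals.
Drd2: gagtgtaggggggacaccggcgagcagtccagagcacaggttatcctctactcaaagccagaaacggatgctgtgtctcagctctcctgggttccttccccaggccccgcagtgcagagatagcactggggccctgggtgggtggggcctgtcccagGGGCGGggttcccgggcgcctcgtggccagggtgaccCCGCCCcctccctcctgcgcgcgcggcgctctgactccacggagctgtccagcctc
Rarb: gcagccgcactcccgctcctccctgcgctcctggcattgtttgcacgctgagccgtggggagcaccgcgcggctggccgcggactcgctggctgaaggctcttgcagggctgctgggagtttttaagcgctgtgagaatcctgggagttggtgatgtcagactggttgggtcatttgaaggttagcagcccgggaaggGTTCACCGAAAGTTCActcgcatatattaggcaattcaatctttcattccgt
Of the 7 listed genes, 5 had such windows in the RefSeq table, 8 windows in all. On both strands they were searched for the half-site of the androgen response element (AGAACA), the whole element (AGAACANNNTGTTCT), the estrogen response element (GGTCANNNTGACC) and the cyclic AMP response element (TGACGTCA), and none of these letters occurred in any of the 8. The half-site is contained in the whole element, and among all 32851 windows of the same length these motifs occurred in 16.1%, 0.00913%, 0.0639% and 1.55%. The retinoic acid response element of Rarb starts 52 bases before the transcription start, and its letters occur in 0.067% of all windows. The GC box occurred in 32.7% of all windows. A match or its absence describes these letters in these windows only.

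The array labelled male TP stood apart. Xist, the RNA of X inactivation, had a log2 value of 10.45 on it, against 5.29 on the male vehicle array, while the 4 female arrays lay between 12.61 and 12.83. The Y-linked gene Eif2s3y was at 9.12 on the male TP array and 9.16 on the male vehicle array, and at most 3.09 on female arrays. Some pituitary markers were also high on it: Gh, growth hormone, was at 8.55, against 5.71 on the male vehicle array and 5.37 to 5.75 on the female arrays. Pomc was at 7.86, against 6.46 on the male vehicle array. The pituitary markers Fshb, Prl, Lhb and Pitx1 did not have their highest value on it. Leaving this array out of the fit over both sexes leaves the female comparison, so the female values below are the values without it.

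The comparison over both sexes asked whether TP changed these genes in the neonatal brain, adjusting for sex. It found no change past the threshold in any of the 19 probe sets (limma, adjusted p under 0.05 over 34945 probe sets), and 0 of all 34945 (0%) passed. At an unadjusted p under 0.05 there were 4 of the 19, 3 higher and 1 lower with TP, where 12.3% of all probe sets stood (5.11% higher and 7.21% lower). That count was 2 of 19 without the first female TP array, the first female vehicle array or either male array, and 6 of 19 without the second female vehicle array, while the count over all probe sets ran from 2736 to 5754 when an array was left out. The 19 differences ran from -0.29 to 0.31 with a median of -0.054, while the median over all probe sets was -0.020 and their 5th and 95th percentiles were -0.21 and 0.19. Negative differences numbered 11 of 19, against 57.8% of all probe sets. The share of negative differences was close to that of all probe sets.

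**Figure D1:**
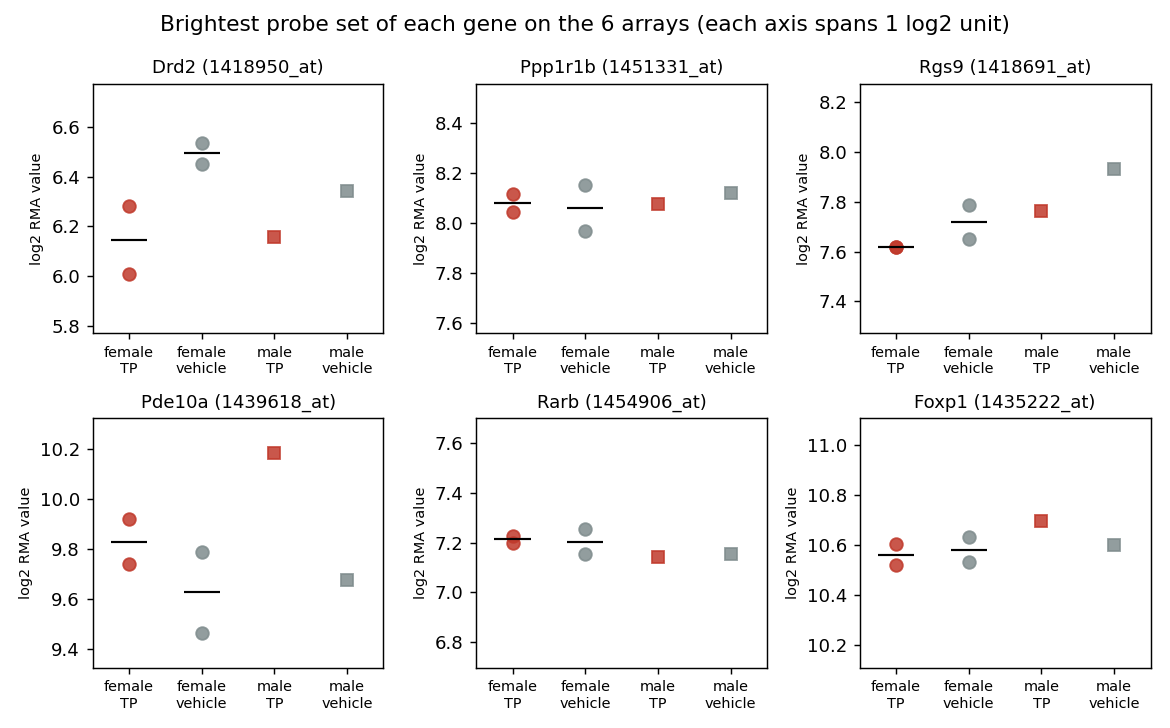
Log2 RMA values of the brightest probe set of 6 striatal projection neuron genes on each array, in red for TP and grey for vehicle, circles for females and squares for males, with lines at the female means. Drd2 lies lower on all 3 TP arrays than on all 3 vehicle arrays, while Ppp1r1b, Rarb and Foxp1 span at most 0.18 log2 units over the 6 arrays.

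Among the receptors, Drd2 encodes the dopamine D2 receptor, which couples to inhibitory G proteins and lowers cyclic AMP. Its single probe set, 1418950_at, had values of 6.01 and 6.28 on the female TP arrays and 6.16 on the male TP array, against 6.45 and 6.54 on the female vehicle arrays and 6.34 on the male vehicle array. Every TP array lay below every vehicle array, by a narrow gap between the second female TP array and the male vehicle array. Means were 6.15 ± 0.14 with TP and 6.44 ± 0.10 with vehicle (SD, n = 3 each). The difference was -0.29 log2 units (SE 0.09, 95% confidence interval -0.50 to -0.088), or 0.82-fold, with an unadjusted p of 0.0113 and an adjusted p of 0.325 by limma, so it did not pass. In females alone, without the male TP array, it was -0.35 (SE 0.11, limma adjusted p = 0.594), and in the single male arrays -0.18. The difference between the sexes in the TP effect was 0.16 (95% confidence interval -0.30 to 0.62), which did not pass either (adjusted p = 1.00).

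Genes of other tissues with Drd2 were set beside this value. The list of other dopamine receptors and midbrain dopamine neuron markers had 11 of 12 genes measured, 5 of them dim, with 7 negative and 4 positive differences and a median of -0.078, against -0.029 over all genes. Its summed linear level ran from 1719 to 1798 on TP arrays and from 1697 to 1753 on vehicle arrays, so the groups overlapped. None passed, and 2 of 11 had an unadjusted p under 0.05, both lower, against 10.7% of all genes. These were the D4 receptor Drd4 at -0.27 (SE 0.09, limma adjusted p = 0.342) and Pitx3, a transcription factor of midbrain dopamine neurons, at -0.23 (SE 0.08, limma adjusted p = 0.352), both dim. The dim D3 receptor Drd3 had a difference of 0.13 and was the 1 of 11 higher on all TP arrays, against 4.69% of all genes. Th, which makes dopamine, had a difference of -0.12 (adjusted p = 0.464 for Drd3 and Th by limma). The transporters of these neurons differed in sign, with -0.16 for Slc6a3 and 0.094 for Slc18a2. Drd1, the D1 receptor of direct-pathway cells, had a difference of -0.024 (SE 0.06), with values of 8.35 and 8.36 on female TP arrays and 8.31 on the male TP array, against 8.39 and 8.35 on female vehicle arrays and 8.35 on the male vehicle array. Pituitary markers, a list added with the values in view, had 10 of 12 genes measured, 7 of them dim. Their summed level was 319 and 335 on the female TP arrays and 852 on the male TP array, against 319 to 364 on the vehicle arrays. The sum on the male TP array came mostly from Gh and Pomc, with log2 values of 8.55 and 7.86, while Prl stood at 3.81. The part of midbrain dopamine neurons and pituitary cells in the Drd2 value was not tested.

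Of the signalling proteins, Ppp1r1b encodes DARPP-32, an inhibitor of protein phosphatase 1 once protein kinase A has phosphorylated it. Its probe set 1451331_at stood at 8.11 and 8.04 on the female TP arrays and 8.08 on the male TP array, against 8.15 and 7.97 on the female vehicle arrays and 8.12 on the male vehicle array. The TP values lay inside the range of the vehicle values. The difference was -0.00078 (SE 0.07), with a 95% confidence interval from 0.89-fold to 1.12-fold.

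Rgs9 encodes a regulator that speeds the switching off of G proteins, and its long isoform is enriched in striatum. Its brightest probe set, 1418691_at, had values of 7.62 and 7.62 on the female TP arrays and 7.76 on the male TP array, against 7.79 and 7.65 on the female vehicle arrays and 7.93 on the male vehicle array. Within each sex the TP values were the lower ones, but over both sexes the groups overlapped. The difference was -0.12 (SE 0.06, limma adjusted p = 0.474), with a 95% confidence interval of -0.27 to 0.027. The other probe sets of Rgs9, both dim, differed by 0.16 and 0.030, so the gene's probe sets disagreed in sign. The related regulators and the subunits of the R7 RGS complex gave 1 of 6 genes at an unadjusted p under 0.05, against 10.7% of all genes. This was Rgs7bp, the membrane anchor of these regulators, at 0.24 (SE 0.06, adjusted p = 0.307 by limma), and Rgs11, Rgs6 and Gnb5 differed by -0.16, -0.11 and -0.043 without passing.

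Pde10a encodes a phosphodiesterase that breaks down cyclic AMP and cyclic GMP and is abundant in striatal projection neurons. Its brightest probe set, 1439618_at, had the largest difference of the 19. It stood at 9.92 and 9.74 on the female TP arrays and 10.18 on the male TP array, against 9.46 and 9.79 on the female vehicle arrays and 9.67 on the male vehicle array. The groups overlapped, since the second female TP array lay below the second female vehicle array. The difference was 0.31 (SE 0.11, 95% confidence interval 0.048 to 0.56), with an unadjusted p of 0.0258 and an adjusted p of 0.365 by limma. In females alone it was 0.20 (SE 0.13, limma adjusted p = 0.732), and in males, where the array that stood apart supplies the TP value, it was 0.51.

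The other 4 probe sets of Pde10a had differences of the opposite sign, from -0.19 to -0.072, and none passed. Probe set 1419389_at stood at 8.36 and 8.35 on the female TP arrays and 8.69 on the male TP array, against 8.44 and 8.71 on the female vehicle arrays and 8.58 on the male vehicle array. It was lower with TP in females by 0.22 on the log2 scale (a difference of -0.22) and higher in males by 0.11, and the difference between the sexes was 0.33 (SE 0.18, limma adjusted p = 1.00). Probe sets 1432490_a_at and 1419390_at were dim, and 1419390_at ranged over 0.56 log2 units. Of all genes with several probe sets, 57.2% had TP differences of both signs, so such disagreement was common on these arrays. No level of Pde10a as a whole can be given a direction from them.

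**Figure D2:**
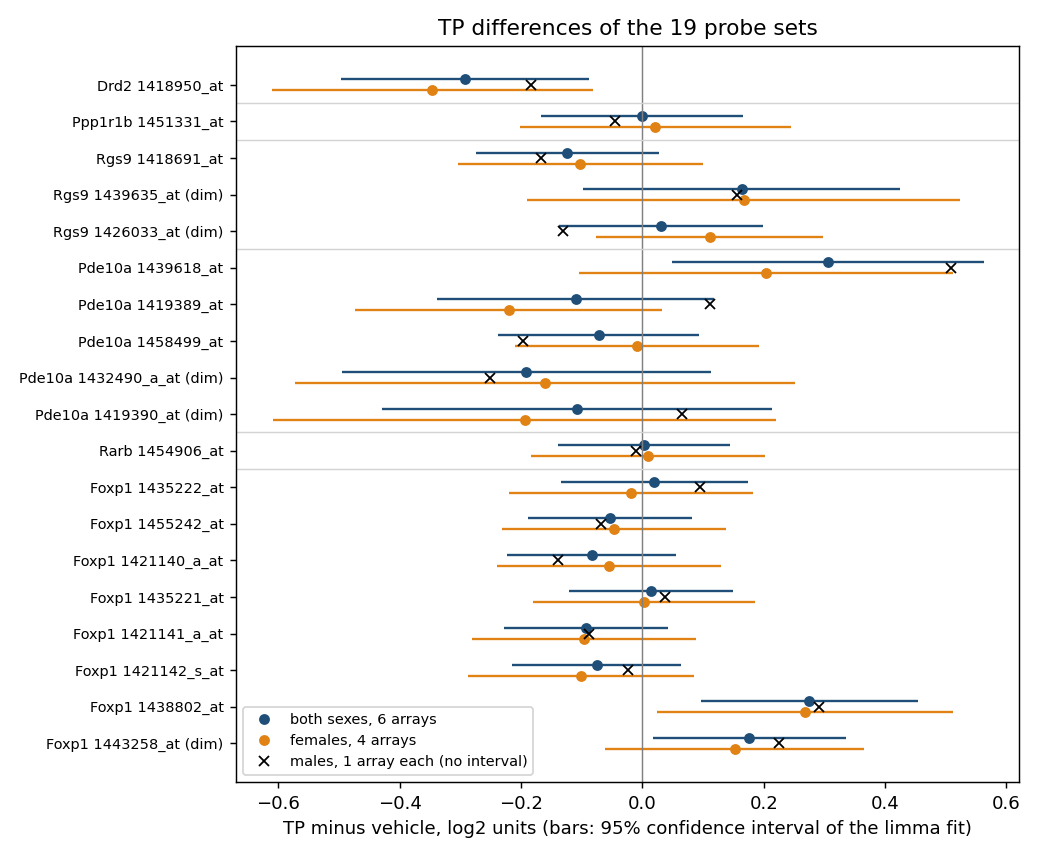
TP minus vehicle difference in log2 units for each of the 19 probe sets, over both sexes (blue), in females (orange) and between the single male arrays (crosses), with 95% confidence intervals of the limma fits. Pde10a and Foxp1 each have probe sets on both sides of 0, and Drd2 lies below 0 in all 3 comparisons.

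Among the transcription factors, Rarb encodes retinoic acid receptor beta, which in mouse supports the development of striatal projection neurons. Its probe set 1454906_at was the steadiest of the genes measured by 1 probe set, with values between 7.14 and 7.25 on all arrays. It stood at 7.20 and 7.23 on the female TP arrays and 7.14 on the male TP array, against 7.15 and 7.25 on the female vehicle arrays and 7.15 on the male vehicle array. The difference was 0.0025 (SE 0.06), with a 95% confidence interval from 0.91-fold to 1.10-fold.

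Other genes of retinoid signalling gave mostly small negative differences. Of 17 listed genes 16 were measured, and 14 had negative and 2 positive differences, where 62.1% of all genes were negative. The median was -0.10, against -0.029 over all genes, with -0.070 in females and -0.11 in males. None passed, and 1 of 16 had an unadjusted p under 0.05, against 10.7% of all genes. This was Aldh1a2, a retinoic acid synthesizing enzyme, at -0.16 (SE 0.06, limma adjusted p = 0.390). Lower on all 3 TP arrays were 3 of the 16, Aldh1a2 and Crabp2 among them, against 10.3% of all genes. The binding proteins Crabp1 and Crabp2 and the retinol dehydrogenase Rdh10 differed by -0.13, -0.10 and -0.10 (adjusted p = 0.451, 0.498 and 0.543). The receptor Rxrg, which is also enriched in striatum, differed by -0.025.

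Foxp1 encodes a forkhead transcription factor that in mouse is made in striatal projection neurons of both pathways and in cortical neurons. Its brightest probe set, 1435222_at, had values of 10.52 and 10.60 on the female TP arrays and 10.70 on the male TP array, against 10.53 and 10.63 on the female vehicle arrays and 10.60 on the male vehicle array. The groups overlapped and the difference was 0.019 (SE 0.07, 95% confidence interval -0.13 to 0.17).

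The other 7 probe sets of Foxp1 divided by sign. Probe set 1421140_a_at stood at 9.58 and 9.56 on the female TP arrays and 9.56 on the male TP array, against 9.60 and 9.65 on the female vehicle arrays and 9.70 on the male vehicle array. Its groups did not overlap, and neither did those of 1421141_a_at and 1455242_at, all of them lower with TP by at most 0.093 on the log2 scale (differences of -0.084, -0.093 and -0.054). Together with Drd2 these were the 4 of 19 probe sets lower on all TP arrays, against 9.12% of all probe sets. As 1421140_a_at, 1421141_a_at and 1421142_s_at were designed from a single source sequence, they are not separate measurements of the gene. The same holds for 1435222_at, 1435221_at and 1455242_at, which share another source sequence.

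Of the 8 probe sets of Foxp1, 4 had positive differences. That of 1435221_at was 0.014 (SE 0.06) and close to 0, like that of 1435222_at, while the others were larger. Probe set 1438802_at stood at 6.11 and 6.04 on the female TP arrays and 5.75 on the male TP array, against 5.92 and 5.69 on the female vehicle arrays and 5.46 on the male vehicle array. TP values were the higher ones within each sex and overlapped over both, and the difference was 0.28 (SE 0.08, 95% confidence interval 0.097 to 0.45, limma adjusted p = 0.313). The dim probe set 1443258_at stood at 4.50 and 4.33 on the female TP arrays and 4.34 on the male TP array, against 4.27 and 4.26 on the female vehicle arrays and 4.11 on the male vehicle array. It differed by 0.18 (SE 0.07, limma adjusted p = 0.382), the 1 of 19 higher on all TP arrays, against 6.01% of all probe sets. The mean of all 8 differences of Foxp1 was 0.022. Of the other family members, Foxp2 differed by -0.13, Foxp3 by 0.089 and Foxp4 by 0.016, and none passed (smallest adjusted p = 0.465 by limma).

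In females, the sex the series is about, 0 of the 19 probe sets passed the threshold, and 2 of all 34945 did (0.00572%). At an unadjusted p under 0.05 there were 2 of the 19, Drd2 lower and 1438802_at of Foxp1 higher, against 7.83% of all probe sets. Female TP and vehicle arrays were fully separated for 10 of the 19, against 38.4% of all. In the single male arrays the 19 differences ran from -0.25 to 0.51, with a median of -0.024 against -0.024 over all probe sets. The sign was the same in both sexes for 13 of the 19 probe sets, against 61.5% of all. No probe set of these genes differed between the sexes in its TP effect by limma (0 of 19 adjusted and 0 of 19 at an unadjusted p under 0.05, against 0.02% and 4.84% of all).

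**Figure D3:**
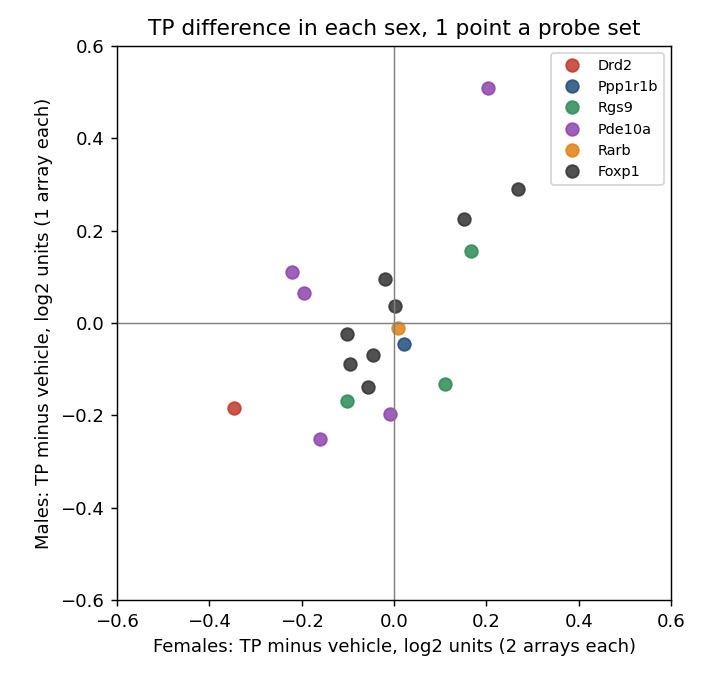
TP minus vehicle difference of each probe set in females (horizontal axis, 2 arrays each) and males (vertical axis, 1 array each) in log2 units, coloured by gene. Of the 19 points 13 lie in the quadrants of equal sign, and the point farthest up is 1439618_at of Pde10a at 0.51 in males.

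The levels in males and females were compared over both treatments. None of the 19 probe sets passed, and 4 of all 34945 did (0.0114%). Values at an unadjusted p under 0.05 were found for 2 of the 19, against 12.5% of all probe sets. Probe set 1438802_at of Foxp1 was lower in males, with a difference of -0.34 (SE 0.08, limma adjusted p = 0.301), and 1418691_at of Rgs9 was higher, with 0.18 (SE 0.07, limma adjusted p = 0.368). Without the male TP array the Foxp1 difference was -0.35 (limma adjusted p = 0.564) and the Rgs9 difference was 0.21 (limma adjusted p = 0.640). Groups did not overlap for 1 of the 19, against 20.4% of all. It was Rarb, where the highest male and the lowest female value were both 7.15 and the difference was -0.060 (SE 0.06).

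Other genes of striatal neurons gave small differences of both signs. Of 10 direct-pathway genes 9 were measured, 6 with negative and 3 with positive differences (median -0.024), and of 9 indirect-pathway genes 7 were measured, 5 negative and 2 positive (median -0.059). Of 26 genes common to both pathways 25 were measured, 16 negative and 9 positive (median -0.029), and in the list of cyclic AMP and dopamine signalling all 20 were measured, 12 negative and 8 positive (median -0.0091). Over all genes the median was -0.029, and 62.1% of genes had negative differences. In the 4 lists that share was 66.7%, 71.4%, 64% and 60%, in the order given. For the common list the median was -0.068 in females and 0.067 in males, where the array that stood apart supplies the TP value. Over all genes these were -0.024 and -0.034. The medians of the direct-pathway, indirect-pathway and signalling lists were negative in both sexes. None of these genes passed, as none of all 18193 did (0%). At an unadjusted p under 0.05 the lists had 2 of 9, 2 of 7, 4 of 25 and 1 of 20 genes, against 10.7% of all genes.

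Among direct-pathway genes the smallest p belonged to Pdyn, the precursor of dynorphin, at -0.21, followed by Slc35d3, a transporter linked in mouse to D1 receptor traffic, at -0.14. Among indirect-pathway genes, Grik3, a kainate receptor subunit, stood at 0.26 and was higher on all TP arrays, and the dim Upb1, an enzyme of pyrimidine breakdown, stood at -0.27 (SE 0.11, adjusted p = 0.397 by limma). Penk, the precursor of enkephalin, stood at -0.077 (SE 0.06) and the transcription factor Six3 at -0.069 (SE 0.06), both lower on all 3 TP arrays. In the common list the 4 smallest p belonged to Syndig1l (-0.22), Gpr149 (-0.25), the transcription factor Ikzf1 (-0.20) and Scn4b, a sodium channel subunit (-0.18). Their adjusted p lay between 0.312 and 0.391 by limma, and all but Syndig1l were dim. Over the common list 4 of 25 genes were lower on all TP arrays, against 10.3% of all genes, and 3 of 25 were higher, against 4.69%. The higher ones were Dach1 (0.14), the cannabinoid receptor Cnr1 (0.14) and Tmem158 (0.15). Of the signalling genes, Prkaca, a catalytic subunit of protein kinase A, stood at 0.22, and Gnal, the striatal G protein subunit that activates adenylyl cyclase, stood at 0.12 (adjusted p = 0.339 and 0.485 by limma). The phosphodiesterase Pde2a stood at -0.13 and Prkar2b, a regulatory subunit of protein kinase A, at 0.17 (adjusted p = 0.483 and 0.492 by limma). Of the 20 genes 2 were higher on all TP arrays, Prkaca and Gnal, against 4.69% of all genes. Another 2 were lower, Rgs8 at -0.11 and the phosphatase Ptpn5 at -0.082, against 10.3% of all genes.

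**Figure D4:**
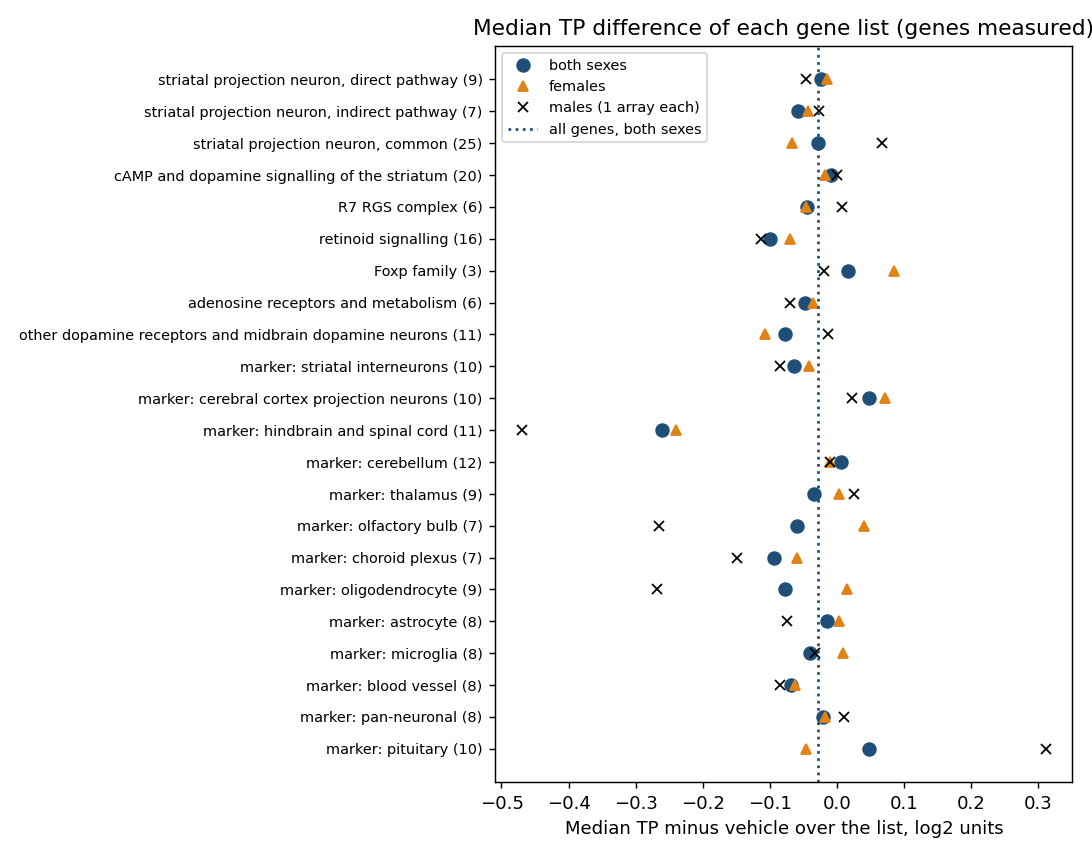
Median TP minus vehicle difference in log2 units of each gene list, with the number of genes measured in brackets, over both sexes (blue circles), in females (orange triangles) and between the single male arrays (crosses). Over both sexes the striatal lists lie near the dotted line at the median of all genes, -0.029, and the hindbrain and spinal cord list lies at -0.26.

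Markers of neighbouring regions and cell types were set beside these values. Hindbrain and spinal cord markers had 10 of 11 measured genes negative (median -0.26, 6 of the 11 dim), and 8 of 11 had an unadjusted p under 0.05, all lower, against 7.39% of all genes. Their summed linear level was 925 and 941 on the female TP arrays and 680 on the male TP array, against 1048 and 1090 on the female vehicle arrays and 999 on the male vehicle array. These groups did not overlap. Cerebral cortex markers had 7 of 10 genes positive (median 0.048), with a summed level of 6824 to 7344 on TP arrays and 6329 to 6844 on vehicle arrays, which overlapped. Striatal interneuron markers had 8 of 10 genes negative (median -0.065), against 62.1% negative over all genes. At an unadjusted p under 0.05 there were 1 higher and 2 lower of the 10 genes, against 10.7% of all genes. These were Nkx2-1 at 0.22, Ngfr at -0.24 and Chat, of cholinergic neurons, at -0.22, and none passed. Pan-neuronal markers had 5 of 8 genes negative (median -0.021). Blood vessel markers had 7 of 8 genes negative (median -0.068, against 62.1% negative over all genes). Of these markers 3 of 8 were lower on all TP arrays, against 10.3% of all genes: Pecam1 at -0.31, Flt1 at -0.20 and Cdh5 at -0.15. Oligodendrocyte markers had 8 of 9 genes negative (median -0.078, in females 0.014), and the myelin genes Mog at -0.36 and Mag at -0.29 were lower on all TP arrays. Choroid plexus markers had 6 of 7 genes negative (median -0.093), with the channel Kcnj13 at -0.26 the 1 of 7 lower on all TP arrays (10.3% of all genes). None of these genes passed. The summed linear levels of all 3 lists, to which bright genes add most, overlapped between the groups. They ran from 3970 to 4277 on TP arrays and 4025 to 4409 on vehicle arrays for blood vessel, and from 12771 to 14186 on TP arrays and 13778 to 14830 on vehicle arrays for oligodendrocyte. For choroid plexus they ran from 17395 to 18086 on TP arrays and 17097 to 17816 on vehicle arrays. The mean log2 values of these lists, to which each gene adds equally, did not overlap and were lower on all TP arrays. For blood vessel the means ran from 7.81 to 7.89 with TP and 7.94 to 7.98 with vehicle. For oligodendrocyte they ran from 8.95 to 9.15 with TP and 9.17 to 9.24 with vehicle. For choroid plexus they ran from 7.22 to 7.37 with TP and 7.38 to 7.44 with vehicle. This was not particular to these lists. Mean log2 values were also lower on all TP arrays for the hindbrain, striatal interneuron, retinoid and direct-pathway lists. For direct-pathway genes they ran from 7.36 to 7.38 with TP and 7.40 to 7.43 with vehicle. For striatal interneurons they ran from 7.63 to 7.68 with TP and 7.70 to 7.71 with vehicle. Those of the indirect-pathway, common and signalling lists overlapped. Whether a shift in the regions or cells sampled bears on the striatal values was not tested.

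The genes closest to the mean profile of the 6 brightest probe sets were Ywhab, Rpl13a, Kansl1, Rnps1 and Zfp451. Likeness was the root mean square distance between centred log2 profiles over the 6 arrays, from 0.0099 for Ywhab to 0.015 for Zfp451. The mean profile itself moved by only 0.037 (root mean square), with -0.050 and -0.028 on the female TP arrays and 0.056 on the male TP array, against -0.024 and 0.024 on the female vehicle arrays and 0.023 on the male vehicle array. Distances of single members from the mean profile ran from 0.032 for Foxp1 to 0.21 for Pde10a. The genes named were picked as the closest, so their smaller distances were fixed by that choice.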

How the data were processed

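Whole-brain RNA was measured on 6 Affymetrix arrays. The deposited values are log2 expression values that the authors made with RMA (background correction, normalization between arrays and summary per probe set), per the submitters' processing notes. Its version is not stated there. Medians of the arrays ran from 5.69 to 5.74. Without counts, precision is limited by how many arrays there were. Gene names came from the platform's annotation table. Of 45101 probe sets, 932 had several genes, 9160 had none there and 64 were controls, and these were left out. No array was a copy of another (equal values at 215 probe sets at most).

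Every single-gene probe set was tested by limma (version 3.58.1, R 4.3.3) with lmFit and eBayes, no trend, two-sided, and with Benjamini-Hochberg adjustment over 34945 probe sets. Models were TP and sex over 6 arrays, TP in the 4 female arrays, and 4 groups for the difference between the sexes in the TP effect, where each lone male array is taken to vary as the female arrays do. The male arrays alone were not tested. The scripts were tested on simulated data with known differences. Members and lists were chosen with earlier results of these data known. Every probe set of the members is named or counted, up to 4 genes with the smallest p are named from lists described gene by gene, and Slc6a3, Slc18a2, Drd1, Rxrg, Dach1, Cnr1, Tmem158, Rgs8, Ptpn5, Xist, Eif2s3y, Gh and the pituitary list were picked beyond that rule with values in view. Other settings tried were 1 probe set or the mean per gene, all probe sets, dim probe sets left out, quantile normalization again, centring on medians, an intensity trend, a replicate block and leaving out each array. Upstream sequences are from RefSeq, build GRCm38.p6. Python 3.11.15 with pandas 2.3.3 and matplotlib 3.10.9 made the figures.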

Additional observations from a re-analysis of the deposited data

How the results depend on the processing

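No probe set of these genes passed the threshold under any setting tried in any tested comparison, and the small number of arrays limits every value. The count over all probe sets moved instead. For TP over both sexes it was 0, with 4 when all probe sets were tested, 38 with an intensity trend and 0 to 2 when an array was left out, the 2 coming without the male TP or the male vehicle array. For TP in females it was 2, with 5 at 1 probe set a gene, 5 with all probe sets, 1 without dim ones, 6 after quantile normalization, 8 after centring, 16 with the trend and 0 without any 1 array. For the difference between the sexes it was 7, with 2 at 1 probe set a gene, 2 at the mean of probe sets and 12 with the trend. For male against female it was 4, with 10 over all probe sets, 0 without dim ones, 37 with the trend and 3 to 14 when an array was left out, the 14 without the male vehicle array.

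Some differences changed sign, and the cause was not tested beyond the settings' own construction. Not all of these were near 0: the value given above for 1439618_at of Pde10a was 0.31 and that for 1418691_at of Rgs9 was -0.12 over both sexes, and in females 1432490_a_at stood at -0.16, 1419390_at at -0.19 and 1439635_at at 0.17. With each gene's probe sets averaged, the difference over both sexes was 0.023 for Rgs9 and -0.035 for Pde10a, that in females 0.059 for Rgs9, -0.076 for Pde10a and 0.013 for Foxp1, and male against female -0.028 for Foxp1. After quantile normalization it was 0.0072 for Ppp1r1b and -0.0049 for 1435222_at of Foxp1 over both sexes and -0.0059 for 1435221_at in females, and after centring 0.0032 for Ppp1r1b. When an array was left out, values over both sexes ran from -0.019 to 0.059 for 1435222_at of Foxp1, -0.24 to 0.075 for 1419390_at of Pde10a, -0.060 to 0.045 for Ppp1r1b, -0.028 to 0.029 for Rarb and -0.012 to 0.11 for 1426033_at of Rgs9. In females they ran from -0.015 to 0.019 for 1435221_at and -0.069 to 0.031 for 1435222_at of Foxp1, -0.47 to 0.083 for 1419390_at, -0.40 to 0.080 for 1432490_a_at and -0.074 to 0.055 for 1458499_at of Pde10a, -0.071 to 0.11 for Ppp1r1b, -0.040 to 0.059 for Rarb and -0.061 to 0.40 for 1439635_at of Rgs9. For the difference between the sexes they ran from -0.16 to 0.026 for Ppp1r1b, -0.070 to 0.028 for Rarb and -0.13 to 0.0030 for Rgs9, and for male against female from -0.15 to 0.012 for Drd2 and -0.014 to 0.065 for Ppp1r1b. The Drd2 difference with TP stayed between -0.36 and -0.20 over both sexes and between -0.48 and -0.21 in females when an array was left out. The female arrays share only a number: deviations of same-numbered arrays correlated at 0.11 over probe sets, and with the replicate block 0 probe sets passed over both sexes and 2 in females. The median male difference stayed between -0.028 and -0.014.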
